A study of Mus musculus with 16 samples.

Results

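Cholesterol synthesis and its control by SREBP2 were followed in mouse liver through 27 genes. They are the enzymes that lead from acetyl-CoA to cholesterol, the regulators of the transcription factor SREBP2, and a few further genes that SREBP2 is known to switch on. Members were taken by gene symbol from a list chosen with earlier results of these data known. All 27 were found among the 15544 genes of the table. Every member passed the filter on low values, and each reached a value of 1 in all 16 libraries.

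A liver cell makes cholesterol by joining acetyl-CoA units into mevalonate, turning mevalonate into isoprenoid units, joining these into squalene, and folding squalene into lanosterol, which a chain of later enzymes trims to cholesterol. SREBP2, encoded by Srebf2, is held in the endoplasmic reticulum with its escort SCAP by the retention proteins INSIG1 and INSIG2 while sterol is plentiful. When sterol is scarce, the complex moves to the Golgi, SREBP2 is cut, and its free end enters the nucleus and raises transcription of the pathway. The liver is a main site of this synthesis, and its products leave as lipoproteins or bile acids.

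The study asked how loss of oestrogen receptor alpha from part of the female hypothalamus raises bone mass, and liver was one of the tissues profiled. Total liver RNA from 16 female mice aged 27 weeks was sequenced, 1 library a mouse and 4 mice in each of 4 groups. The labels do not say whether mice of a group shared a litter or cage.

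Control mice carried Esr1 fl/fl alone, and mutant mice carried Esr1 fl/fl with the Nkx2-1-Cre driver. Both genotypes therefore share the floxed allele. The driver acts from development onward in the Nkx2-1 lineage, which includes parts of the hypothalamus and also lung and thyroid, so liver RNA holds no check of the deletion. Mice stayed on chow or received a high-fat diet (HFD) for the last 17 weeks. Each value is a normalised TPM, a length-adjusted share of the library after scaling by size factors, so that levels of different genes can be set side by side. Column totals ran from 905897 to 1119703, between 11834 and 12443 genes reached 1 in a library, and sequencing depth is unknown. Summed levels of 6 hepatocyte markers lay between 62800 and 104000 in every library. The whole span of 13 members, introns included, overlaps another annotated gene. The counting is not stated to use strand, and any effect on their values was not tested.

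Library titles carry a number that runs in series, and the labels do not say what it means. Among HFD libraries, the series L23x holds 3 controls and 1 mutant, and the series L33x-L34x holds 3 mutants and 1 control. Chow libraries carry other series, L31x with 2 controls and 1 mutant and L32x with 2 controls and 3 mutants. Diet and title series therefore cannot be told apart, and on HFD genotype and title series are largely confounded. Replicates were numbered within a group, and the 2 HFD libraries that cross the series are mutant replicate 1, titled L23x, and control replicate 4, titled L33x-L34x.

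SREBP2 acts on promoters through a sterol regulatory element, usually beside a CCAAT box that binds NF-Y or a GC box that binds Sp1. A RefSeq promoter window on GRCm38.p6, from 250 bases before to 50 after a start site, was at hand for 22 of the 27 members. The letters CCAAT were found on either strand in 20 of these 22 (90.9%), against 42.3% of 17492 protein-coding genes. GGGCGG, the core of a GC box, was found in 19 of 22 (86.4%), against 49.2%. The element TCACNCCAC was found in Hmgcs1 alone, against 1.41% of protein-coding genes. A shorter form of it, TCACNCCA, chosen after the first search, was found in Srebf2, Hmgcs1 and Msmo1, against 4.66%. The shorter form is part of the longer one, CCAAT and GGGCGG are separate searches, and a match describes letters, not binding.

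Stretches of 100 bases are shown for 6 members to set promoters of genes that followed the other members across these livers (Hmgcs1, Mvd, Nsdhl, Sc5d, with the values given further on) beside those of genes that followed less or not (Ebp, Ggps1). All lie before the start in RefSeq and in GENCODE M21, and each reads 5′ to 3′ along the gene's own strand. Capitals mark CCAAT in either orientation and, in Hmgcs1, the sterol element.
Hmgcs1, chr13:119690169-119690268, plus strand: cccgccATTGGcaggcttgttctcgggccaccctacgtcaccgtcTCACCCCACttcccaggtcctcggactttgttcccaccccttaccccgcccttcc
Mvd, chr8:122443423-122443522, minus strand: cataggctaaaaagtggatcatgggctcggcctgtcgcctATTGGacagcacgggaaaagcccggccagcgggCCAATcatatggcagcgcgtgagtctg
Nsdhl, chrX:72918421-72918520, plus strand: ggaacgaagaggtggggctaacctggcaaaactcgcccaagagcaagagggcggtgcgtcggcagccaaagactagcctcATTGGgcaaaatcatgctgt
Sc5d, chr9:42264301-42264400, minus strand: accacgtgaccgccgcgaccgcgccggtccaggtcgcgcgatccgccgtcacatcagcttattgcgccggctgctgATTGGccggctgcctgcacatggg
Ggps1, chr13:14063489-14063588, minus strand: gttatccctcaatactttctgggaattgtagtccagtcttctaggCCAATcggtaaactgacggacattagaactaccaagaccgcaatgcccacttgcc
Ebp, chrX:8193513-8193612, minus strand: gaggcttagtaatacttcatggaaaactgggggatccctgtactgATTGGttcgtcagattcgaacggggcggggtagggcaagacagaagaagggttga
Only windows with CCAAT or the sterol element before the start could give a stretch. That CCAAT appears in both kinds of gene therefore follows from the choice and compares nothing. Scap and Acat2 held no CCAAT in their windows.

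Levels of most of the 27 genes went up and down together from mouse to mouse, with Ggps1, Npc1 and Insig2 as the main exceptions. The median over members of log2(value + 1) lay between 5.47 and 6.63 in the 8 chow libraries, between 4.16 and 4.94 in the 4 HFD libraries titled L23x, and between 5.39 and 6.41 in the 4 titled L33x-L34x. Control replicate 2 on chow had the highest level of 21 of the 27 genes. Mutant replicate 1 on HFD had the lowest level of 11, and control replicate 1 on HFD the lowest of 9. These per-mouse shifts run within groups as well as between them.

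**Figure D1:**
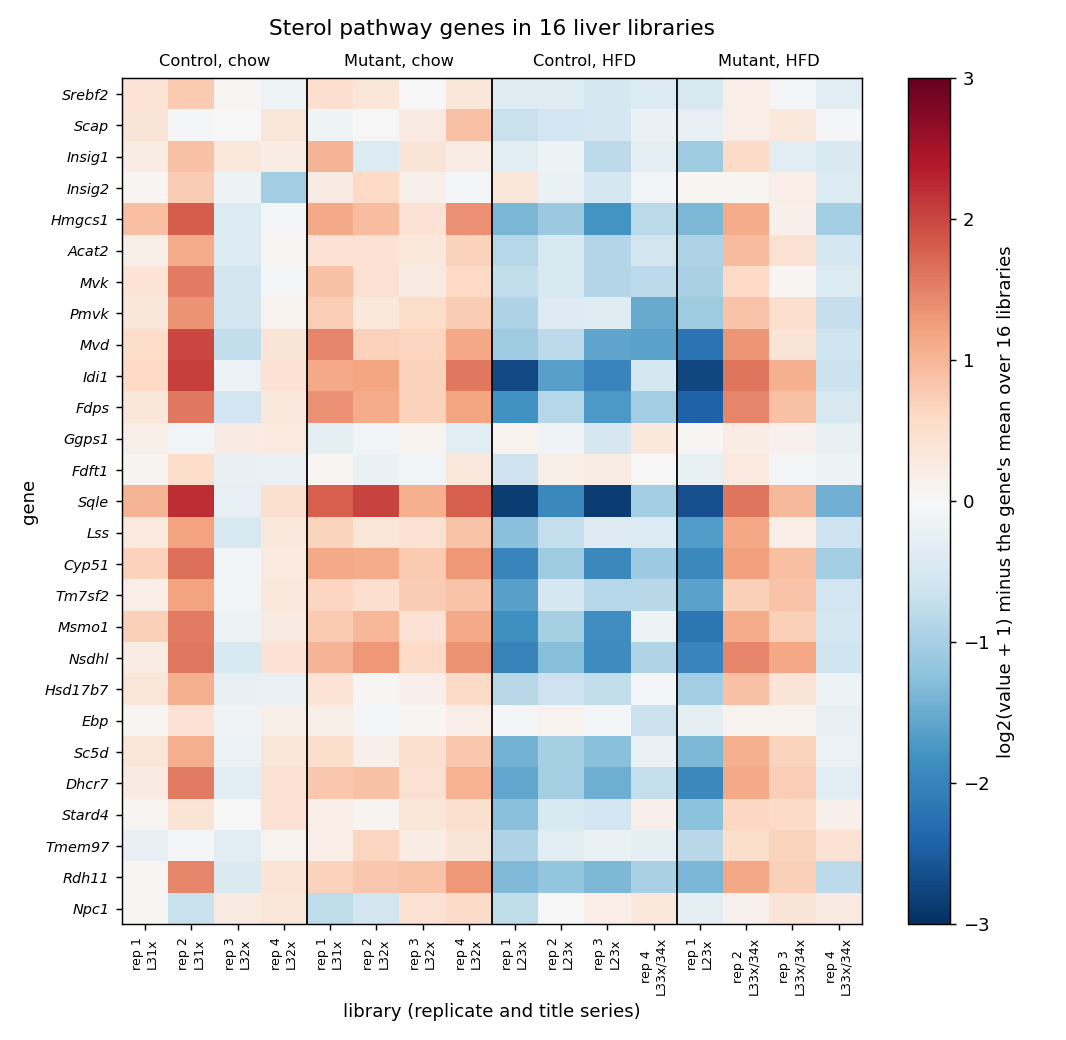
Heat map of the 27 genes (rows, ordered by role) in 16 liver libraries (columns, by group, with replicate and title series). Colour gives log2(value + 1) minus the gene's mean over the 16 libraries. Most rows are red in most chow libraries, though not in control replicate 3. They are blue in the 4 HFD libraries titled L23x, and red again in mutant replicates 2 and 3 on HFD.

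Each gene was set against the mean of the other 26 over the 16 libraries, as a description with no test. The median Pearson r of the members was 0.951, and it was 0.916 after the group means were removed. The points share libraries and groups, so r describes these 16 mice alone. Across the 12677 other genes tested, the median r with the members' mean was 0.05, and 4 reached the members' median. Dhcr7 stood closest to the rest with r of 0.988, followed by Cyp51 at 0.986 and Idi1 at 0.985. Ggps1 (0.003), Npc1 (0.021) and Insig2 (0.297) did not follow the rest, and Fdft1 (0.531) and Ebp (0.63) followed in part. Srebf2 itself had an r of 0.866 with the others.

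The size of the swings differed widely between members. Sqle spanned the widest range, its highest library being 56.2 times its lowest, followed by Idi1 at 31.3, Mvd at 26.4 and Fdps at 16.6. The regulators were flatter, with 2.58 for Srebf2, 2.93 for Scap, 4.25 for Insig1 and 3.57 for Insig2. Ggps1 (1.94), Ebp (2.12) and Fdft1 (2.27) were the flattest enzymes.

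**Figure D2:**
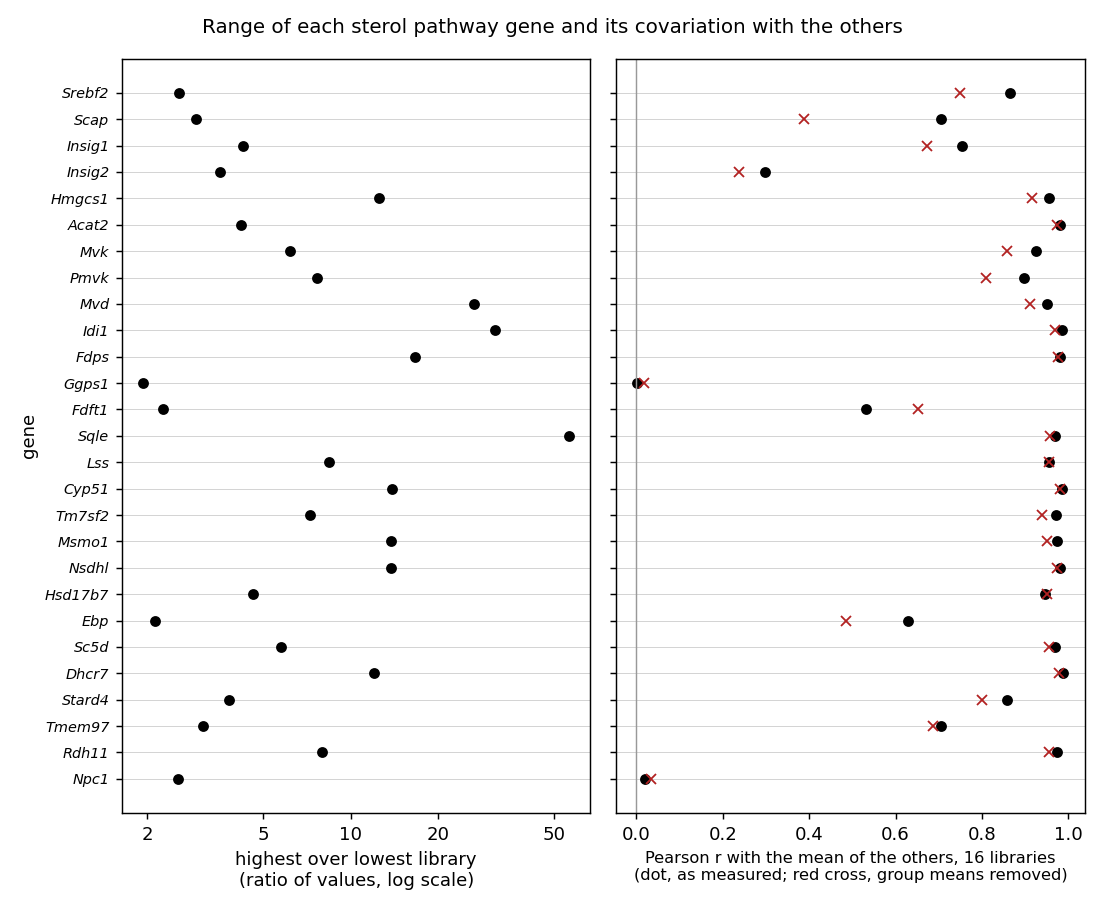
Left, ratio of the highest to the lowest library for each of the 27 genes (log axis); right, Pearson r of each gene with the mean of the other members over 16 libraries (dots) and after removal of group means (red crosses). Sqle has the widest range at 56.2, and Ggps1, Npc1 and Insig2 lie far to the left of the others in r.

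Among the regulators, Srebf2 (ENSMUSG00000022463, chr15:82147181-82205379) encodes SREBP2. It measured 31.4, 40.7, 24 and 21.3 in control replicates 1 to 4 on chow, 33.3, 30.2, 23.5 and 30.1 in mutants on chow, 17.8, 17.9, 15.8 and 17.1 in controls on HFD and 16.5, 26.9, 22.1 and 18 in mutants on HFD. All 4 HFD controls lay below all 4 chow controls, and HFD mutants overlapped HFD controls. Scap (ENSMUSG00000032485, chr9:110333288-110384950), the sterol-sensing escort, measured 95.1, 70.3, 72 and 92.3 in chow controls, 65.4, 71.2, 87.1 and 133 in chow mutants, 45.3, 48.3, 50.7 and 62.7 in HFD controls and 60.5, 82.3, 90 and 70.1 in HFD mutants. HFD controls again lay below chow controls throughout, and 1 HFD mutant fell within the HFD control range. Insig1 (ENSMUSG00000045294, chr5:28071363-28078662), a retention protein that is itself an SREBP2 target, measured 243, 380, 258 and 243 in chow controls, 420, 155, 273 and 242 in chow mutants, 165, 188, 120 and 171 in HFD controls and 98.9, 312, 164 and 150 in HFD mutants. Its HFD controls were all below its chow controls, whereas its mutants ranged widely on both diets. Insig2 (ENSMUSG00000003721, chr1:121304353-121332589), the second retention protein, measured 171, 281, 148 and 78.8 in chow controls, 194, 249, 184 and 159 in chow mutants, 213, 143, 113 and 154 in HFD controls and 170, 171, 188 and 123 in HFD mutants. No Insig2 group stood apart from another.

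The mevalonate arm (Acat2, Hmgcs1, Mvk, Pmvk and Mvd) converts acetyl-CoA to the first isoprenoid unit, and its values are given by group mean ± SD (n = 4 each). Hmgcs1, which makes the HMG-CoA that feeds mevalonate, averaged 245 ± 174 in chow controls, 275 ± 71.6 in chow mutants, 57.9 ± 16.5 in HFD controls and 142 ± 112 in HFD mutants. Mvd, which decarboxylates mevalonate diphosphate, averaged 27.4 ± 22.9, 30.4 ± 8.68, 5.62 ± 1.89 and 17 ± 15.2 in the same order. Acat2 averaged 62.3 ± 30.4 in chow controls and 30.1 ± 4.64 in HFD controls. Mvk, the first mevalonate kinase, averaged 40.8 ± 28.3 and 16.1 ± 2.09 in those groups, and Pmvk, the next kinase, 50.4 ± 29.5 and 21.4 ± 7.5. The SDs of chow controls and HFD mutants were large in all 5 genes.

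In the isoprenoid arm, Idi1 (ENSMUSG00000058258, chr13:8885501-8892451) interconverts the isoprenoid units. It measured 90.9, 253, 52 and 80.9 in chow controls, 131, 137, 97.1 and 179 in chow mutants, 8.24, 18.4, 14.4 and 40.8 in HFD controls and 8.11, 182, 126 and 37.7 in HFD mutants. Among HFD mice, the 4 lowest values were the 4 titled L23x. Fdps (ENSMUSG00000059743, chr3:89093588-89101959), which makes farnesyl diphosphate, measured 189, 447, 99 and 186 in chow controls, 386, 322, 241 and 340.9 in chow mutants, 41.9, 82, 44.2 and 71.8 in HFD controls and 26.9, 414, 275 and 106 in HFD mutants. Its 2 title series on HFD overlapped through control replicates 2 and 4. Ggps1, which extends farnesyl diphosphate for protein prenylation, kept between 4.19 and 8.15 in all libraries.

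Sqle (ENSMUSG00000022351, chr15:59315077-59331192), the squalene epoxidase that is a slow step of the pathway, measured 35.2, 81.9, 13.9 and 23.7 in chow controls, 61, 72.1, 36.4 and 60.5 in chow mutants, 1.46, 3.66, 1.46 and 7.85 in HFD controls and 1.87, 52.8, 33.9 and 5.57 in HFD mutants. Every chow library was above every HFD control, and HFD mutants held values from both ends of that range. Fdft1, the squalene synthase just before it, lay between 53.6 and 122 with group means of 88.2 ± 23.8, 85.1 ± 13.6, 82.1 ± 19.8 and 81.6 ± 13.5. Lss, the cyclase that makes lanosterol, ran from 5.74 to 48.4.

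**Figure D3:**
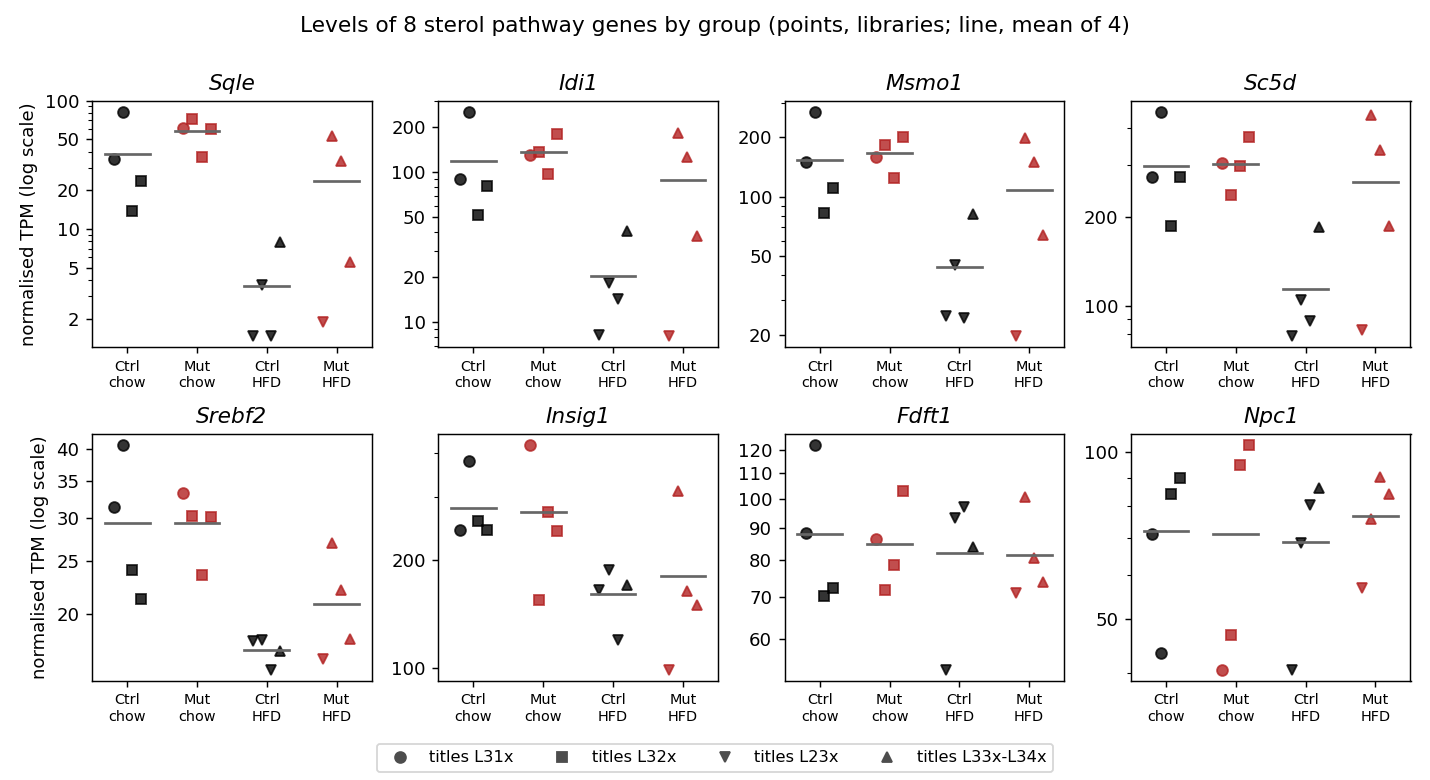
Normalised TPM (log axes) of 8 of the genes in each library, by group; black points are controls, red points mutants, point shape gives the title series and the grey line the mean of 4. Sqle, Idi1, Msmo1 and Sc5d show every upward triangle (L33x-L34x) above every downward triangle (L23x) on HFD, and Fdft1 shows no such order.

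The later enzymes turn lanosterol into cholesterol. Cyp51 (ENSMUSG00000001467, chr5:4081145-4104746), the lanosterol demethylase, measured 56.9, 113, 32.9 and 43.4 in chow controls, 77.8, 77.2, 61.4 and 88.1 in chow mutants, 8.14, 16.3, 8.38 and 16 in HFD controls and 8.48, 83.7, 66.8 and 16.8 in HFD mutants. HFD controls were low throughout, and only mutant replicates 2 and 3 on HFD reached chow levels. Msmo1 (ENSMUSG00000031604, chr8:64718139-64733792), a sterol methyl oxidase, measured 150, 270, 82.8 and 111 in chow controls, 159, 184, 125 and 202 in chow mutants, 25, 45.2, 24.4 and 82 in HFD controls and 19.7, 199, 150 and 63.8 in HFD mutants. Control replicate 4 on HFD was the highest of its group, just under the lowest chow control. Nsdhl (ENSMUSG00000031349, chrX:72918557-72958514), which acts with it in removing methyl groups, measured 33.7, 87.8, 20.7 and 39.3 in chow controls, 59.1, 72.3, 43.4 and 75.3 in chow mutants, 6.42, 11.2, 6.99 and 15 in HFD controls and 6.5, 81.8, 65.2 and 18.8 in HFD mutants. Mutant replicate 1 on HFD sat at the bottom with the L23x controls.

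Hsd17b7 (ENSMUSG00000026675, chr1:169949535-169969241), the ketoreductase of the same steps, measured 28.5, 47.2, 18.7 and 19.1 in chow controls, 29.6, 22.7, 24.5 and 33.2 in chow mutants, 11.9, 14, 12.8 and 21.6 in HFD controls and 10.2, 41.3, 29.1 and 19.8 in HFD mutants. Control replicate 4 on HFD lay inside the chow range. Sc5d (ENSMUSG00000032018, chr9:42251595-42264256), the sterol C5 desaturase, measured 274, 454, 187 and 273 in chow controls, 304, 237, 297 and 373 in chow mutants, 79, 105, 88.7 and 185 in HFD controls and 82.9, 444, 336 and 187 in HFD mutants. The 4 HFD libraries titled L23x kept within 79 and 105, and the other HFD libraries started at 185. Dhcr7 (ENSMUSG00000058454, chr7:143823145-143848410), which catalyses the last reduction to cholesterol, measured 65.9, 166, 43.4 and 76.2 in chow controls, 98, 103, 77 and 116 in chow mutants, 18.1, 27.3, 19.4 and 33.6 in HFD controls and 13.8, 124, 92.6 and 43.3 in HFD mutants. Its 4 lowest HFD libraries were again those titled L23x. Tm7sf2, a sterol C14 reductase, ran from 37.6 to 273, and Ebp, the sterol isomerase, from 109 to 231.7.

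Of the 4 further targets, Stard4 (ENSMUSG00000024378), which carries cholesterol through the cytosol, measured 43.3, 55.2, 41.2 and 56 in chow controls, 47.3, 43.5, 53 and 58.4 in chow mutants, 16.8, 29.7, 27.6 and 46.1 in HFD controls and 16.9, 64.3, 61.7 and 46.1 in HFD mutants. All HFD libraries titled L33x-L34x lay above the lowest chow libraries, and those titled L23x lay below every chow library. Tmem97 (ENSMUSG00000037278, chr11:78541817-78550777), a sterol-binding partner of NPC1, measured 63.1, 72.4, 58.8 and 81.2 in chow controls, 86, 118, 87.2 and 98.3 in chow mutants, 38.8, 60.1, 64.7 and 61.8 in HFD controls and 41.9, 109, 120 and 101 in HFD mutants. On chow, the genotypes did not overlap. Rdh11 (ENSMUSG00000066441, chr12:79174337-79192293), a retinol dehydrogenase, measured 22.9, 63.7, 16.3 and 30.2 in chow controls, 36.6, 40.3, 41.1 and 56.6 in chow mutants, 8.36, 9.38, 8.24 and 11 in HFD controls and 8.02, 51.3, 37.3 and 12.5 in HFD mutants. Its HFD controls had a narrow spread, and its HFD mutants did not. Npc1, which releases cholesterol from lysosomes, ran from 40.6 to 103 with no order by group.

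The comparison of diets in controls asks how the pathway stood after 17 weeks of HFD in mice with an intact receptor. All 27 genes, and 51.4% of all genes tested, had a lower mean log2 level on HFD than on chow. Of the 27, 16 had no overlap between the groups, but none passed the test across all genes. The members' median log2 difference was -1.08 (from -3.03 to -0.02), beside -0.01 over the 12704 genes tested. Sqle had the largest difference, -3.03 ± 0.77 (SE), with an adjusted p of 0.188 in limma. Its mean on chow was 10.7 times that on HFD. Idi1 followed at -2.45 ± 0.75 (adjusted p = 0.23, limma) and Cyp51 at -2.15 ± 0.56 (adjusted p = 0.199, limma).

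The groups did not overlap for 3 of 4 regulators (Srebf2, Scap and Insig1), 3 of 5 genes of the mevalonate arm, 2 of 3 of the isoprenoid arm, 1 of 3 of the squalene steps (Sqle), 6 of 8 of the later enzymes and 1 of 4 further targets (Rdh11). For each of these 16, the two-sided exact permutation test gave its smallest possible p, 0.0286. Groups of 4 without overlap always give that value, so it adds nothing to the lack of overlap. Levels of most members rose and fell together, so these are not 16 separate results. Srebf2 differed by -0.70 ± 0.19 and Insig1 by -0.79 ± 0.32 on the log2 scale. Insig2 (-0.02), Npc1 (-0.07), Fdft1 (-0.10), Ggps1 (-0.20), Ebp (-0.30) and Tmem97 (-0.30) had the smallest differences.

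Over all genes, 2.98% had groups that did not overlap with HFD lower, and 6.52% were lower at an unadjusted p under 0.05, which 21 of the 27 members were. At an adjusted p under 0.05, 0% of genes passed in either direction, so no gene of the liver was called between these groups of 4. Leaving out control replicate 4 on HFD, the one HFD control titled L33x-L34x, gave 7 called members (Scap, Hmgcs1, Idi1, Sqle, Cyp51, Msmo1 and Sc5d), all lower, with 7.28% of all genes called. With library weights estimated by limma, 14 members were called lower, with 17.8% of all genes called. Because every HFD library has another title series than every chow library, diet cannot be told apart from series here.

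In mutants, 25 of the 27 genes, and 52.3% of all genes, had a lower mean log2 level on HFD than on chow. The members' median was -0.69 (from -2.05 for Sqle to 0.20 for Npc1). None passed the test (smallest adjusted p 0.639 in limma), no member's groups separated, and the share of all genes called was 0%. Srebf2 (-0.48 ± 0.19), Sqle (-2.05 ± 0.77), Hmgcs1 (-1.24 ± 0.51) and Cyp51 (-1.29 ± 0.56) were lower at an unadjusted p under 0.05, as were 4.16% of all genes. Groups that did not overlap, with HFD lower, made up 1.86% of all genes. For the genes given in every library, HFD mutant replicates 2 and 3 lay near chow levels and replicate 1 well below them in most, while replicate 4 lay low for Sqle (5.57) but at chow level for Stard4 (46.1) and Tmem97 (101).

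The diet difference was tested against genotype by the interaction. Its median over members was 0.51 (from -0.24 for Insig2 to 1.12 for Idi1). The interaction was positive for 26 of 27 members, against 48.3% of all genes. Positive means that the drop on HFD was smaller in mutants. No member passed (smallest adjusted p 0.895 in limma) and 0 had an unadjusted p under 0.05, while 0% of all genes were called. For Sqle the interaction was 0.98 ± 1.09. With title series as a term the median became -0.125 and that of Sqle -0.39.

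The comparison of genotypes on HFD asks whether mutants differ from controls under the diet. Mean log2 levels of all 27 genes were higher in mutants, as were those of 52.9% of all genes. The members' median difference was 0.68 (from 0.01 for Fdft1 to 1.79 for Sqle), beside 0.02 over all genes. No member passed the test, the smallest adjusted p being 0.548 for Scap in limma, and the groups of every member overlapped. Over all genes 0.0157% were called. Sqle differed by 1.79 ± 0.77 (means 23.5 ± 24.2 and 3.61 ± 3.01), Idi1 by 1.54 ± 0.75, Nsdhl by 1.54 ± 0.61 and Cyp51 by 1.32 ± 0.56. Scap differed by 0.54 ± 0.20, and Srebf2 by 0.25 ± 0.19.

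At an unadjusted p under 0.05, 7 members were higher in mutants (Scap, Sqle, Cyp51, Nsdhl, Sc5d, Tmem97 and Rdh11), against 4.77% of all genes. Groups that did not overlap, with mutants higher, made up 1.39% of all genes and 0 members. For Sqle, Idi1, Nsdhl and Cyp51, mutant replicates 2 and 3 stood above every HFD control, and mutant replicate 1 stood beside the lowest of them. With title series in the fit, 20 members were higher and 7 lower, with a median of 0.29 (from -0.22 to 0.66), and 0 had an unadjusted p under 0.05. The difference then stood at 0.65 for Sqle, 0.29 for Idi1, -0.002 for Msmo1 and -0.10 for Stard4.

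The members called in the genotype comparison changed with the libraries kept and with their weights. Leaving out mutant replicate 1 on HFD called Nsdhl (2.20) and Tmem97 (0.98), with 1.11% of all genes. Leaving out both libraries that cross the series called 14 members, with 21.2% of all genes, but genotype and title series are then the same split of the 6 libraries. With library weights, 16 members were called, with 30.9% of all genes, and the weights of those 2 libraries were the lowest of the 16, at 0.329 for mutant replicate 1 and 0.228 for control replicate 4.

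On chow, no member differed between genotypes past the test. The median difference was 0.25 (from -0.30 for Ggps1 to 0.81 for Sqle), beside 0.02 over all genes. Of the 27, 22 were higher in mutants, against 54.6% of all genes. Levels of most members rose and fell together, so the 22 are not separate results. The smallest adjusted p was 0.845 in limma, 0 members had an unadjusted p under 0.05, and 0.0236% of all genes were called. Tmem97 was the one member whose groups did not overlap, with a mean of 97.4 ± 14.8 in mutants and 68.9 ± 9.98 in controls. The difference was 0.49 ± 0.27. Its two-sided exact permutation p, 0.0286, is the smallest the design allows and follows from the lack of overlap. Groups without overlap, with mutants higher, made up 1.95% of all genes.

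**Figure D4:**
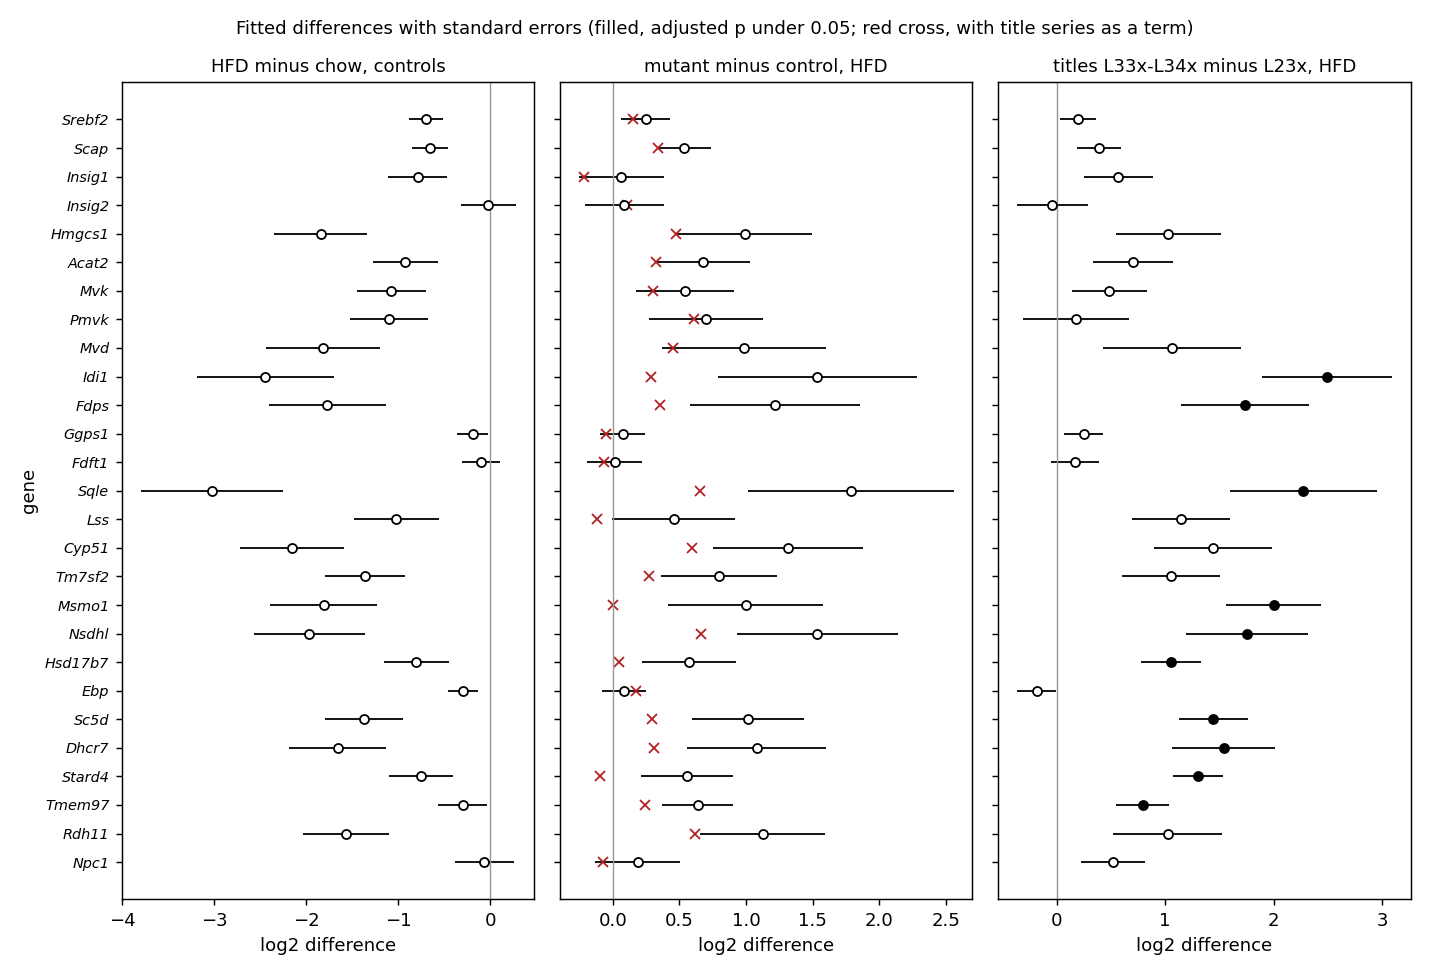
Fitted log2 differences of the 27 genes with standard errors (limma) for HFD minus chow in controls (left), mutant minus control on HFD (middle) and titles L33x-L34x minus L23x on HFD (right); filled points have an adjusted p under 0.05 and red crosses give the genotype difference with title series as a term. All points lie below 0 on the left, none is filled there or in the middle, and 10 are filled on the right.

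The 2 title series within HFD were compared with genotype in the fit. Here 10 members passed the test, all higher in L33x-L34x: Idi1 and Fdps of the isoprenoid arm, Sqle, the later enzymes Msmo1, Nsdhl, Hsd17b7, Sc5d and Dhcr7, and the targets Stard4 and Tmem97. The median difference over all members was 1.03 (from -0.18 for Ebp to 2.49 for Idi1), beside 0.04 over all genes. Of the 27, 25 were positive, against 53.7% of all genes. This stands in a comparison where 25.2% of all genes were called, and 13.5% were called higher.

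Idi1 differed by 2.49 ± 0.60 (adjusted p = 0.00949), with a mean of 96.6 ± 70 in L33x-L34x and 12.3 ± 5.04 in L23x. Sqle differed by 2.27 ± 0.67 (adjusted p = 0.0264), with means of 25 ± 22.6 and 2.11 ± 1.05. Msmo1 differed by 2.001 ± 0.439 (adjusted p = 0.00584). These are the steps of isoprenoid, squalene and lanosterol conversion. Stard4 had the smallest adjusted p, 0.00184, at 1.30 ± 0.23, and Sc5d followed Msmo1 with 0.00614, at 1.45 ± 0.32. Nsdhl (1.75), Fdps (1.73), Dhcr7 (1.54), Hsd17b7 (1.06) and Tmem97 (0.79) had adjusted p-values from 0.0143 to 0.0465 in limma.

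Neither the regulators nor the mevalonate arm held a called member. Srebf2 differed by 0.20 ± 0.17, Scap by 0.39 ± 0.21, Insig1 by 0.57 ± 0.32 and Insig2 by -0.04 ± 0.32. Hmgcs1, of the mevalonate arm, differed by 1.03 ± 0.48 (adjusted p = 0.136, limma). Whether called and uncalled members differ from each other was not tested.

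In 11 members every L33x-L34x library was above every L23x library, against 19.6% of all genes. At an unadjusted p under 0.05, 13 members were higher, against 20.5% of all genes. Within each genotype taken alone, every L33x-L34x library was above every L23x library for 12 members (Scap, Hmgcs1, Idi1, Sqle, Msmo1, Nsdhl, Hsd17b7, Sc5d, Dhcr7, Stard4, Rdh11 and Npc1), against 26.6% of all genes. For Sqle, control replicate 4 had 7.85 against 1.46 to 3.66 in the other HFD controls, and mutant replicate 1 had 1.87 against 5.57 to 52.8 in the other HFD mutants.

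The call rests on mutant replicate 1, the one mutant titled L23x. Without it the median was 0.38, and 1 member was called, Ebp, lower in L33x-L34x by -0.65 (adjusted p = 0.038, limma), with 14.7% of all genes called. Without mutant replicate 3, 6 members were called, with 21.7% of all genes. Over the alternatives run, the difference took both signs for 6 members outside the 10 called: Pmvk (-0.94 to 1.30), Mvd (-0.47 to 2.60), Mvk (-0.10 to 1.07), Ebp, Insig2 and Srebf2.

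Some marker levels of other cells differed between the title series, in a comparison where 25.2% of all genes were called. Of 5 tested red cell markers 2 were lower in L33x-L34x (Hba-a1 by -1.83 and Alas2 by -1.03), and their 6 genes summed to 4830 to 6920 in L23x and 1690 to 4550 in L33x-L34x. Of 6 endothelial markers 2 were higher (Stab2 at 1.16 and Kdr at 0.64), with sums of 120 to 130 and 140 to 161. The differences of these 6 ran from -0.155 to 1.156. Of 6 stellate markers 1 was higher (Reln at 0.55), with sums of 142 to 157 and 182 to 229. None of the hepatocyte or Kupffer markers was called, with hepatocyte sums of 62800 to 77600 and 79600 to 104000 and Kupffer sums of 268 to 391 and 203 to 269. The part of these shifts in the members' differences was not tested, and in whole liver fewer cells of a type and less RNA per cell cannot be told apart.

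Neighbouring pathways were read from lists of related genes. In the title series 25.2% of all genes were called, and 13.5% were called higher, so the list counts below are to be read beside these shares. In the title series, 4 of 16 tested genes of sterol synthesis and trafficking outside the 27 were higher and 2 lower, with a median of 0.18. The differences of these 16 ran from -0.652 to 0.756. Among the 4 higher genes, Lipa, the lysosomal lipase that frees cholesterol, differed by 0.55 ± 0.09 (adjusted p = 0.00107, limma). Of 14 genes that process SREBP or sense sterol, 1 was higher (Rnf139) and 2 were lower (Syvn1 and Spring1). Of 14 genes of the isoprenoid side branches, 4 were higher and 0 lower, at a median of 0.05.

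In the same comparison, fatty acid synthesis, which SREBP1 governs, had 4 of 16 genes higher (Fads1, Fads2, Gpam and Acaca) and 0 lower. Its median was 0.79, and 13.5% of all genes were called higher there, 25.2% in either direction. Cholesterol export under LXR had 1 of 12 higher (Abca1) and 2 lower. Bile acid synthesis had 4 of 12 higher and 2 lower, among them Cyp7a1, the rate-limiting enzyme, at 2.05 ± 0.49 (adjusted p = 0.00907, limma), and Nr0b2, which represses it, at -1.93 ± 0.48 (adjusted p = 0.0117, limma). Fasting genes and clock genes each had 1 higher and 1 lower. No gene of these 8 lists passed the test in the diet or genotype comparisons, and the medians in controls by diet were 0.06 for the other sterol genes and -0.51 for fatty acid synthesis, beside -1.08 for the 27 members.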

How the data were processed

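Per the labels and methods, the authors extracted liver RNA, had NEBNext Ultra II libraries sequenced on a NovaSeq, and quantified genes with kallisto and sleuth on mm10. Tool versions and annotation are not given in the sources used here. Each deposited value is a TPM-like signal, scaled between libraries by size factors, as inferred from fractional values and unequal column totals. Reads of near-identical transcripts are split by estimation. Depth is unknown, so precision comes from the spread between 4 mice.

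Values were tested as log2(value + 1) with limma 3.58.1 (R 4.3.3, trended variance). The filter asked for a value of 1 in 4 or more libraries and passed 12704 genes. One fit of 4 group means over 16 libraries gave 5 contrasts, and a fit with title-series terms gave the sixth. P-values were adjusted over all genes tested (Benjamini-Hochberg, 0.05). Differences of low genes are understated on this scale. A count model foreseen for counts was not applicable.

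The 27 members, lists and tests were chosen with earlier results of these data known. Values in every library are given for the 4 regulators, for members past the threshold in any contrast and for the 8 with the largest genotype difference on HFD. At most 4 genes a list are named. Positions are from GENCODE M21 and promoters from RefSeq (both GRCm38).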

Additional observations from a re-analysis of the deposited data

Results flagged for a closer look

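Within each group of 4, the highest and lowest library of every member were checked for a gap that is wide against the group's range. Of 108 such groups 3 stood out, where chance alone would give about 1 in 20. Insig1 had 1 chow control, replicate 2, far above the other 3, at 380. Tmem97 had 1 HFD control, replicate 1, far below the others, at 38.8. Tmem97 also had 1 HFD mutant, replicate 1, far below the others, at 41.9, and both of these low libraries are titled L23x.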

How the results depend on the processing

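The alternatives were another scaling, filters and pseudocount, library weights, the compared groups alone, title series as a term, no genotype term, and leaving out each library. Of the members' counts and medians, 262 values under an alternative stayed within 1.5 times (counts) or within the spread between replicates (medians). Another 7 counts were higher, 3 lower and 2 medians moved. Counts of 0 that stayed 0 are among the 262, and only the title series had called members in the main fit. The spread was 0.626 on the log2 scale. The genotype median on HFD therefore counted as unchanged when the series term took it from 0.679 to 0.29. Library weights gave 16 called members by genotype on HFD, 14 by diet in controls and 6 by title series (20.9% of all genes called in the last). Without both libraries that cross the series, an alternative chosen after seeing the data, 14 were called by genotype on HFD and 15 by diet in controls (14.8% of all genes). The title series without a genotype term called 17 (31.7% of all genes), and with series as a term the median interaction was -0.125. Leaving out single libraries gave 0 to 2 called by genotype on HFD, 0 to 7 by diet in controls and 1 to 11 by title series, whose median ran from 0.384 to 1.437. The cause of these shifts was not tested.

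Series as a term turned the direction of 19 of 27 members in the interaction, 7 in genotype on HFD and 3 in genotype on chow, none past the test. Among the 16 members given in every library, genotype on HFD with that term gave -0.22 for Insig1, -0.002 for Msmo1 and -0.096 for Stard4, and the interaction of Sqle was -0.394. Insig2 by title series was 0.013 with library weights and 0.015 without the genotype term. Over single libraries left out, genotype on HFD ran from -0.238 to 0.312 for Insig1 and from -0.054 to 0.251 for Insig2, Insig2 by diet in controls from -0.343 to 0.264, and by title series Insig2 from -0.14 to 0.075 and Srebf2 from -0.002 to 0.401.

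No paired analysis was possible because each library is another mouse and the labels do not name litters or cages. Depth is unknown, and with 4 mice a group, adjusted p-values over all genes leave moderate differences undecided.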
